A study of Mus musculus with 68 samples.

Results

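Of 34590 gene symbols measured by RNA-seq in mouse libraries, 45 genes stood higher in endothelial cells of 4 peripheral organs than in those of the brain. They stood higher again in cells sorted as endothelial from the injured central nervous system than in controls. They were chosen from group means of CPM, the reads of a gene per 1000000 reads of its library. Endothelial cells of heart, kidney, lung and liver each had to stand at 5 CPM or more and at 2 times or more of the brain endothelial level + 1 CPM, which 630 symbols met. In at least 3 of 4 injury models, log2 of the subacute mean + 1 over the mean + 1 of its own control had to reach 1, a 2-fold difference, which 225 symbols met. The organ levels and the subacute folds chose the genes and are therefore given as description, with no test. Tests were run only between libraries that the choice did not use.

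The study compared endothelial cells, which line blood vessels, after epilepsy, experimental autoimmune encephalomyelitis (EAE, an autoimmune inflammation of the spinal cord and brain), stroke by occlusion of the middle cerebral artery (MCAO) and traumatic brain injury (TBI). EAE cells were sorted from spinal cord and the others from brain, at stages the labels name acute, subacute and chronic. Each group held 3 libraries, except the subacute and chronic TBI controls with 2; TBI had a control group for each stage, and the other models had 1 control group each. Healthy groups were endothelial cells of heart, kidney, lung and liver, brain endothelial cells and cells named brain vascular (2 libraries each), and whole brain (4 libraries). The brain endothelial libraries came from forebrain of adult male Rosa-tdTomato; VE-Cadherin-CreERT2 mice, in which a Cre recombinase under the promoter of an endothelial cadherin gene switches on a red reporter after tamoxifen. Those mice received 100 ul of tamoxifen at 20 mg/ml on 3 days in a row, 10 days before their cells were freed with papain, collagenase and dispase, cleared of myelin and sorted. All other libraries, whole brain included, carry 1 shared description, endothelial cells sorted into Trizol, and no genotype, strain, age, sex or day is given, and no procedure beyond the names of the models, for them in the sources used here. Organ and preparation therefore cannot be told apart between the organ libraries and the brain endothelial ones. The labels do not say whether replicates are separate animals; the spread that a p-value is set against here is that of libraries and may be technical.

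Libraries were deep enough that 1 CPM stood for 18.8 to 38.8 reads. The 17 endothelial markers summed to between 9509 and 21390 CPM in sorted libraries and to 244 CPM on average in whole brain. One of the 2 brain endothelial libraries stood apart in these genes. It listed 20 of the 45 genes at 0 and held 15153 genes with a read, the fewest in the series, while the other listed 3 of the 45 at 0 and held 18144 genes with a read. Without the first of them 40 genes met the rule, all among the 45, and without the second 50 genes did.

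Resting endothelium of the brain carries little of the selectins and chemokines that slow leukocytes on the vessel wall. Activated endothelial cells place P-selectin and E-selectin on their surface, secrete chemokines, express receptors for bacterial products, remodel the collagen and fibrillin around them, and can enter the cell cycle when vessels repair or sprout. Vessels of heart, lung, liver and kidney express a number of these genes without any injury, and each organ has its own set of carriers and channels besides.

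Promoter sequences are shown for the 4 genes with the largest mean subacute fold over the models because they head the list of responses: Lrg1, Mki67, Selp and Sele. The sequences are the 250 bases before the annotated start, 5′ to 3′ on the gene's strand, from RefSeq on build GRCm38.p6. Lrg1 lies at chr17:56121947-56122196 on the minus strand, Mki67 at chr7:135716380-135716629 on the minus strand, Selp at chr1:164115014-164115263 on the plus strand and Sele at chr1:164047984-164048233 on the plus strand. Capitals mark matches, on either strand, to 5 motifs: NF-kB (3 G, any 2 bases, then TTTCC), STAT (TTCNNNGAA), AP-1 (TGANTCA), the CCAAT box (CCAAT) and the CHR of cell cycle genes (TTTGAA). No 2 matches overlapped in these windows.
Lrg1: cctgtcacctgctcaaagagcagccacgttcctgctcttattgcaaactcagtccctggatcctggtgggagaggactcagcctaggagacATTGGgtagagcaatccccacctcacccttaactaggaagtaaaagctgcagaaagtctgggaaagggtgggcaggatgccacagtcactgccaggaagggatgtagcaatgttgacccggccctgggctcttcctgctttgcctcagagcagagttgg
Mki67: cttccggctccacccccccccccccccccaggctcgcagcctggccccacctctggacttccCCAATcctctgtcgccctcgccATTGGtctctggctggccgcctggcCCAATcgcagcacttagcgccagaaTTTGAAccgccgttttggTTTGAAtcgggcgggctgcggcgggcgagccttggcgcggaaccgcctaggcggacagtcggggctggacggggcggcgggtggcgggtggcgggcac
Selp: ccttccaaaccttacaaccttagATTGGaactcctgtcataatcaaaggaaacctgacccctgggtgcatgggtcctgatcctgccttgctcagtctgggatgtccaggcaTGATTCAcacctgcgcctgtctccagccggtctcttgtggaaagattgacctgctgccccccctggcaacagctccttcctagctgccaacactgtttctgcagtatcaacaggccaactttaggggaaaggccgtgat
Sele: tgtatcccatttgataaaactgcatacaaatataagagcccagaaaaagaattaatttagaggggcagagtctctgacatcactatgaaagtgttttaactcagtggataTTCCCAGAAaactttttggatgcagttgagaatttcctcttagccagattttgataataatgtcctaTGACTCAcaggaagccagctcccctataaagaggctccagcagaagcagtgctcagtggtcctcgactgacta
The Mki67 window held 3 CCAAT boxes and 2 CHR matches, that of Sele 1 STAT and 1 AP-1 match, that of Selp 1 AP-1 match and 1 CCAAT box, and that of Lrg1 1 CCAAT box. Of the 45 genes, 29 had a window in the table. An AP-1 match was in 6 of the 29 (20.7%, against 7.82% of 27025 genes with a window): Cxcl10, Igf1, Sele, Selp, Tfpi2 and Upp1. The CCAAT box was in 8 of 29 (27.6%, against 37.5%), the CHR in 3 (10.3%, against 18.3%), STAT in 2 (6.90%, against 8.13%) and NF-kB in 2, Neurl3 and Tmem176a (6.90%, against 1.65%). These shares are a description of letters in the windows and name no bound factor.

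In healthy vessels the 45 genes were spread over all 4 organs. Liver had the highest mean for 17 of them, heart and lung for 12 each and kidney for 4. Igfbp5, a binding protein of insulin-like growth factors, reached 6805 and 7046 CPM in kidney and 22.1 and 28.5 CPM in liver, against 0 and 3.13 CPM in brain endothelial libraries. Aqp1, a water channel of peripheral capillaries, had 3060 and 2748 CPM in liver and 441 and 512 CPM in heart, against 0 and 0.888 CPM in brain endothelial libraries. These were among the largest gaps, while Cmtm3, at 37.2 and 46.2 CPM in heart and 10.1 and 10.2 CPM in brain endothelial libraries, was among the smaller ones. Brain endothelial means were under 1 CPM for 17 of the 45 genes, and Selp and Ctss were listed at 0 in both libraries. All 45 genes were also higher in each organ mean than in brain vascular cells, and 41 kept a ratio of 2 or more to the brain vascular level + 1 CPM in every organ. The 4 others were Ccl2, Col5a2, Mmp14 and Pdlim1. In the authors' deposited table, 44 of the 45 carry the mark Peripheral-Enriched, as 1399 genes in all do, with Cxcl10 the exception. The authors' deposited table also marks 5 of the 45 as Mural Cell genes (Pdlim1, Igfbp5, Igfbp4, Anxa1 and Tlr2), of 537 so marked. Markers of microglia and macrophages summed to 2938 CPM in liver and 1843 CPM in lung, against 24.97 CPM in brain endothelial libraries. Their part in the organ levels of Ctss, Tlr2 and Cd14, which macrophages also express, was not tested.

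**Figure D1:**
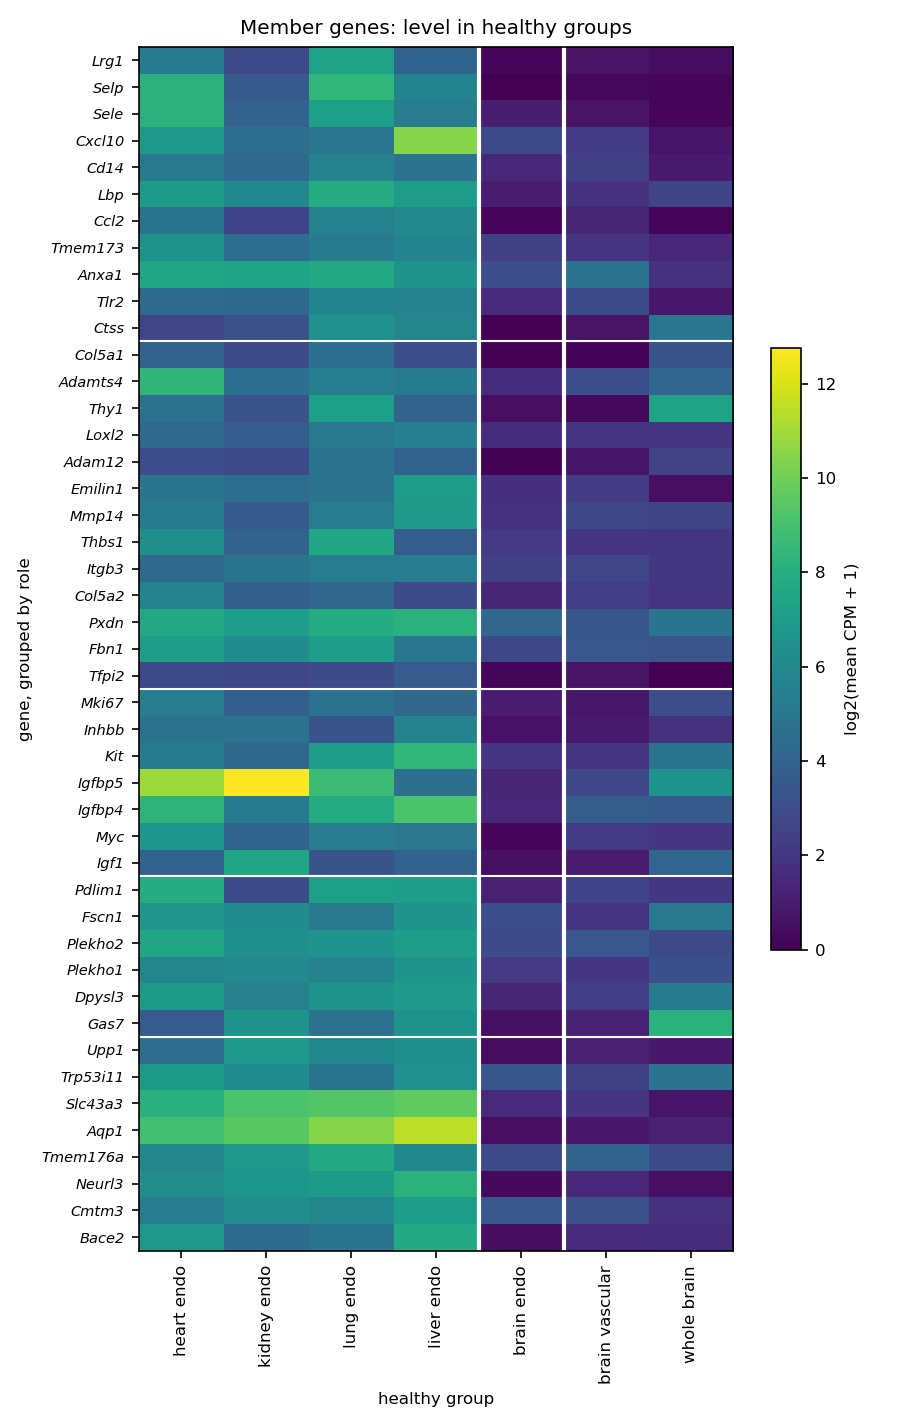
Levels of the 45 genes in healthy groups, as log2(mean CPM + 1) of 2 libraries per sorted group and 4 of whole brain, with genes grouped by role from top to bottom. The 4 organ columns at left are brighter than the brain endothelial column for every gene, by the choice of genes; Igfbp5 in kidney is the brightest cell.

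At the subacute stage, the values that chose the genes were as follows. All 45 passed a log2 fold of 1 in EAE, 41 in stroke, 37 in TBI and 35 in epilepsy, and 23 passed in all 4 models. The shares of all expressed genes past the same fold were 6.52% in EAE, 2.39% in stroke, 2.15% in TBI and 4.17% in epilepsy; nothing is read from these counts, since the choice used them. Lrg1 had the largest mean fold over the models (3.83), before Mki67 (3.56), Selp (3.21) and Sele (3.06), and Gas7 had the smallest (0.94). Epilepsy was the only model with subacute folds under 0 among them: Adam12, Aqp1, Dpysl3, Fbn1 and Gas7 lay under 0 there, down to -1.07 for Dpysl3, although each passed in the 3 other models. These are bulk samples, in which more cells of a kind and more RNA per cell cannot be told apart.

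The stages before and after differed between models in how many of the genes stood apart from control. In EAE, 31 of the 45 were past 2-fold at the acute stage (2.84% of all expressed genes) and 39 at the chronic stage (5.52%). In TBI, 29 were past 2-fold at the acute stage (2.17%) and 3 at the chronic stage (0.327%). In stroke the counts were 12 acute (0.380%) and 3 chronic (0.231%), and in epilepsy 13 acute (4.08%) and 4 chronic (0.673%). The median log2 fold of the genes against control at the acute, subacute and chronic stages was 1.55, 2.59 and 2.25 in EAE, 1.39, 1.27 and 0.09 in TBI, 0.32, 1.85 and 0.26 in stroke, and 0.43, 1.61 and 0.42 in epilepsy, where 41 of the 45 passed a filter on low values. The median over all expressed genes stayed between -0.25 and 0.13 at every stage. The highest of the 3 stage means was the subacute one for 41 of the 45 genes in stroke, 33 in epilepsy and 28 in EAE, and the acute one for 25 in TBI. The choice asked for a high subacute level, which favours a subacute peak, and no share over all genes was counted. Nothing is therefore read from these peak counts. Acute and chronic folds in epilepsy, EAE and stroke share their control libraries with the choice of genes, so they too are description. Without epilepsy chronic library 2 the epilepsy chronic count was 2 genes.

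**Figure D2:**
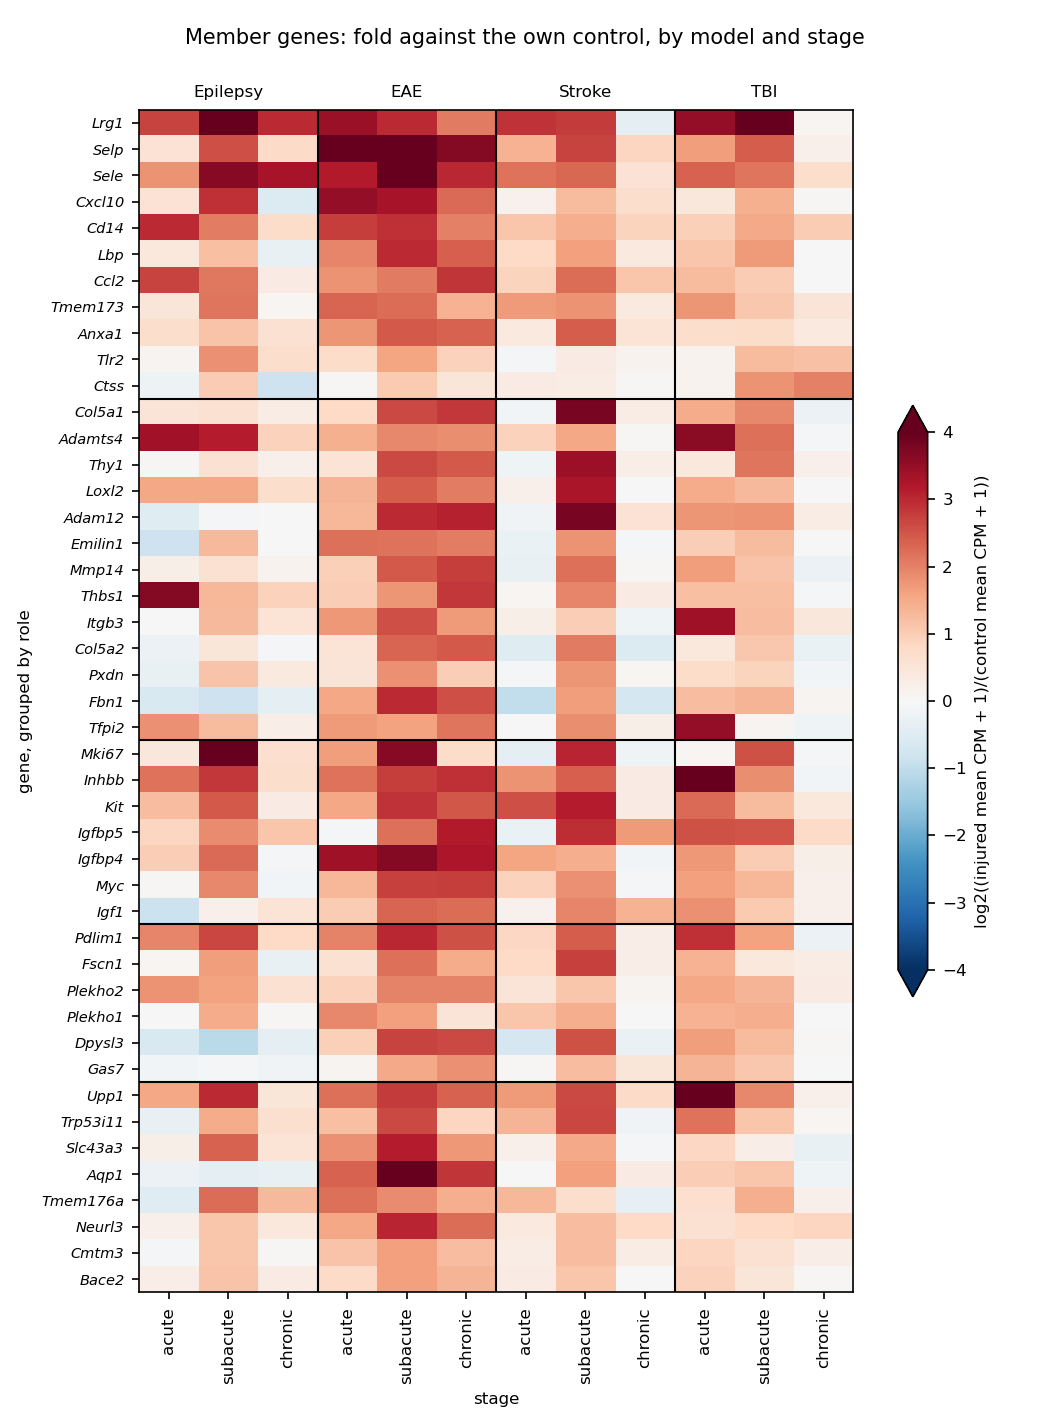
Log2 of (injured mean CPM + 1) over (own control mean CPM + 1) for the 45 genes, by model and stage, with genes grouped by role (leukocyte adhesion and innate immunity, matrix, growth and division, cytoskeleton, carriers and enzymes). The subacute column is red in nearly every cell by the choice of genes; EAE stays red at the chronic stage, while TBI, stroke and epilepsy are pale there, and TBI is already red at the acute stage.

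Some genes reached the mean of the lowest of the 4 organs. Organ, control and subacute means had chosen the genes and no share over all genes was counted, so nothing is read from these counts. The lowest organ can lie far under the others: Igfbp5 had a mean of 215 CPM in subacute EAE, against 25.3 CPM in liver and 6925 CPM in kidney. At the subacute stage, 35 of the 45 genes in EAE, 16 in stroke, 14 in TBI and 10 in epilepsy had means at or over the lowest of the 4 organ means. At the acute stage these counts were 26 in EAE, 20 in TBI, 8 in epilepsy and 3 in stroke, and at the chronic stage 31 in EAE, 3 in epilepsy, 2 in TBI and 1 in stroke. EAE control libraries, from spinal cord, already stood at that level for 11 genes, whereas the brain controls did so for 0 to 2.

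Genes of leukocyte adhesion and innate immunity formed the first group, with 11 members. Selp, P-selectin, the receptor on which leukocytes begin to roll, had 2.75, 4.22 and 4.70 CPM in EAE controls, 98.6, 149 and 52.6 CPM at the acute stage, 128, 237 and 156 CPM at the subacute and 97.9, 38.0 and 46.4 CPM at the chronic stage. Every EAE library of every stage was above all 3 controls. In epilepsy it was listed at 0 in all 3 controls and had 1.08, 0.385 and 0.0413 CPM acute, 0.932, 8.71 and 5.44 CPM subacute and 0.263, 1.55 and 0.312 CPM chronic. In stroke Selp had 0, 0.157 and 0.523 CPM in controls, 0.427, 2.89 and 3.33 CPM acute, 3.44, 12.7 and 4.57 CPM subacute and 1.57, 0.994 and 1.11 CPM chronic. It was thus above the highest control in all 3 chronic stroke libraries. In TBI it had 7.02, 4.57 and 6.64 CPM at the subacute stage, against 0.248 and 0.394 CPM in its controls, and 0.480, 0.279 and 0.129 CPM at the chronic stage, against 0.0623 and 0.211 CPM in its controls.

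Sele, E-selectin, which acts with P-selectin in leukocyte rolling, had 0.107, 0.0780 and 0.174 CPM in epilepsy controls, 4.01, 1.75 and 2.81 CPM acute, 7.15, 16.1 and 16.1 CPM subacute and 1.58, 24.0 and 4.49 CPM chronic. All injured epilepsy libraries were above the controls, and 1 chronic library was higher than any subacute one. That same chronic library, the second, was also high in Lrg1, a secreted glycoprotein that alters TGF-beta signalling in vessels. Lrg1 had 0.0713, 1.79 and 0.523 CPM in epilepsy controls, 16.5, 6.80 and 9.08 CPM acute, 16.9, 34.9 and 174 CPM subacute and 0.966, 33.2 and 5.38 CPM chronic. In stroke Lrg1 had 0.792, 5.17 and 4.40 CPM in controls, 26.1, 28.9 and 40.5 CPM acute, 24.8, 38.7 and 26.6 CPM subacute and 3.25, 1.31 and 2.65 CPM chronic. Acute and subacute stroke libraries overlapped each other in this gene and lay above all control and chronic ones. In EAE Lrg1 had 41.4, 8.98 and 44.3 CPM in controls, 362, 478 and 229 CPM acute, 226, 220.3 and 322 CPM subacute and 325, 59.1 and 26.1 CPM chronic, so that the chronic libraries overlapped the controls and 1 of them carried the mean.

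The chemokines had separate courses. Cxcl10, an interferon-induced chemokine for T cells, was at 19.6, 22.2 and 17.9 CPM in EAE controls, 387, 270.4 and 60.1 CPM acute, 273, 188 and 156 CPM subacute and 96.9, 69.0 and 134 CPM chronic. In epilepsy its subacute libraries lay above those of every other stage, with log2 folds of 0.57, 2.91 and -0.55 at the acute, subacute and chronic stages. Ccl2, a chemokine for monocytes, had 1.28, 2.11 and 1.40 CPM in epilepsy controls, 18.9, 17.6 and 10.8 CPM acute, 7.24, 16.7 and 7.03 CPM subacute and 2.94, 2.49 and 1.37 CPM chronic. Its highest mean in epilepsy was thus the acute one.

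Receptors and sensors of innate immunity made up most of the rest. Cd14, a co-receptor for bacterial lipopolysaccharide, had 5.42, 2.73 and 8.80 CPM in epilepsy controls, 56.6, 26.3 and 71.0 CPM acute, 30.7, 26.1 and 23.4 CPM subacute and 7.55, 12.4 and 9.95 CPM chronic. All acute and subacute libraries stood above all controls in it. Lbp, which passes lipopolysaccharide to Cd14, had EAE log2 folds of 1.96, 3.00 and 2.40, and Tmem173, the STING adaptor of the response to cytosolic DNA, of 2.33, 2.24 and 1.40. Anxa1, an annexin that limits leukocyte adhesion, was at 29.9, 43.2 and 66.3 CPM in subacute stroke libraries, against 6.17, 8.54 and 8.94 CPM in controls. The 3 genes of the 45 past 2-fold in chronic TBI libraries were of this group: Cd14, Tlr2, a receptor of bacterial lipoproteins, and Ctss, cathepsin S, a protease of antigen-presenting cells. Ctss had 8.87, 42.8 and 89.5 CPM there, against 3.21 and 18.7 CPM in controls, so the groups overlapped. Summed microglia and macrophage markers in the same libraries were 70.0, 217 and 435 CPM, against 45.9 and 132.5 CPM in controls, in the same order as Ctss. Cd14, at 5.48, 9.36 and 18.5 CPM, against 3.46 and 6.47 CPM in controls, and Tlr2 ran in that order too. The part of microglia and macrophages in the levels of Ctss, Cd14 and Tlr2 was not tested.

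Matrix genes had 13 members. At the subacute stage 7 of 13 were past 2-fold in epilepsy, 13 in EAE, 12 in stroke and 11 in TBI. These folds chose the genes, and a gene under 2-fold in 1 model had to pass in the other 3. No difference between models is read from such counts. Col5a1, the alpha1 chain of the fibril-forming collagen V, had 0.482, 0.117 and 0.209 CPM in stroke controls, 0.0776, 0.379 and 0.0862 CPM acute, 8.45, 12.9 and 28.6 CPM subacute and 0.706, 0.0355 and 0.988 CPM chronic. Its level was therefore at or under 1 CPM in all stroke libraries but the subacute ones. Adam12, a metalloprotease with a disintegrin domain, had 0.138, 0.0783 and 0.873 CPM in stroke controls, 0.272, 0.379 and 0.0862 CPM acute, 7.98, 16.9 and 29.0 CPM subacute and 1.66, 0.142 and 1.36 CPM chronic. It too was high in the subacute libraries alone. Thy1, a surface glycoprotein of neurons, fibroblasts and some vessels, had 7.34, 7.48 and 23.7 CPM in subacute stroke libraries, against 0.413, 0.352 and 0.0698 CPM in controls. Loxl2, which cross-links collagen, had 20.9, 45.9 and 56.8 CPM in subacute stroke libraries, against 2.89, 2.12 and 5.10 CPM in controls. In all 4 genes every subacute stroke library stood above every control.

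Fibroblast markers moved with these genes. The 13 markers of fibroblasts, none of which is among the 45, summed to 468, 938 and 1313 CPM in the subacute stroke libraries, the order in which Col5a1, Adam12 and Loxl2 also ran, against 27.1 to 47.0 CPM in stroke controls. Of the 13 markers, 12 were past 2-fold there, with a median log2 fold of 4.05. In EAE, the fibroblast sum was 3689, 744 and 3926 CPM in subacute libraries, and Col5a1 had 57.8, 14.1 and 38.6 CPM in them. Col5a2, its partner chain, had 63.0, 12.5 and 55.2 CPM, and Fbn1, the microfibril protein fibrillin, 237, 73.1 and 386 CPM. The second library was lowest in each of these. Selp and Mki67 ran otherwise in the same 3 libraries, with their highest value in the second. The part of fibroblasts in the matrix genes was not tested. In epilepsy, where 4 of 13 fibroblast markers were past 2-fold at the subacute stage and their sum was 102.5 to 151.9 CPM, Col5a1 had 0.444, 0.611 and 0.530 CPM.

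Of the other matrix genes, Adamts4, which cleaves the proteoglycans aggrecan and versican, had 2.07, 5.89 and 4.23 CPM in epilepsy controls, 58.7, 42.8 and 50.0 CPM acute, 34.8, 46.3 and 50.5 CPM subacute and 7.72, 11.6 and 6.24 CPM chronic. Acute and subacute libraries did not overlap the other groups. Thbs1, the matrix protein thrombospondin, had 2.39, 3.78 and 3.36 CPM in epilepsy controls, 58.8, 57.4 and 41.5 CPM acute, 10.8, 10.5 and 6.89 CPM subacute and 2.37, 14.3 and 4.06 CPM chronic, the largest acute fold of the 45 in that model (3.68). Fbn1 had the lowest acute fold of the 45 in stroke, with 4.89, 6.41 and 4.80 CPM acute, against 7.61, 10.8 and 16.2 CPM in controls. In stroke the acute, subacute and chronic log2 folds were -0.98, 1.67 and -0.70 for Fbn1, -0.28, 2.19 and 0.03 for Mmp14, -0.25, 1.80 and -0.07 for Emilin1 and 0.07, 1.96 and 0.33 for Thbs1, so these too were past 2-fold at the subacute stage alone. Emilin1, an elastic fibre protein, Pxdn, a peroxidase of basement membranes, Mmp14, a membrane-bound collagenase, Itgb3, the integrin beta3 chain, and Tfpi2, a protease inhibitor of the matrix, had subacute log2 folds between 0.10 (Tfpi2 in TBI) and 2.59 (Itgb3 in EAE) over the 4 models.

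Growth and division genes had 7 members. Mki67, the Ki-67 protein of dividing cells, had 1.11, 0.117 and 1.31 CPM in epilepsy controls, 1.16, 2.31 and 1.11 CPM acute, 67.6, 67.4 and 38.6 CPM subacute and 2.77, 2.21 and 0.897 CPM chronic. In stroke it had 1.31, 1.88 and 2.13 CPM in controls, 1.12, 1.69 and 0.661 CPM acute, 8.95, 40.6 and 16.6 CPM subacute and 1.54, 1.03 and 1.82 CPM chronic. In both models the subacute libraries lay above all others, with no overlap. In TBI Mki67 had 11.7, 11.6 and 9.13 CPM acute, against 6.14, 10.3 and 13.8 CPM in its controls, and 22.6, 53.3 and 43.6 CPM subacute, against 5.80 and 6.21 CPM in its controls. The acute TBI groups overlapped and the subacute ones did not. In EAE Mki67 had 12.9, 7.62 and 13.3 CPM in controls, 30.8, 69.0 and 15.1 CPM acute, 83.6, 237 and 133 CPM subacute and 28.8, 17.0 and 11.9 CPM chronic, with all acute libraries above the controls.

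The course of Igfbp5 differed between models. In EAE it had 71.5, 49.7 and 16.5 CPM in controls, 78.8, 31.2 and 19.4 CPM acute, 227, 60.2 and 358 CPM subacute and 127, 656 and 485 CPM chronic, with 2 of 3 chronic libraries above all others. In stroke it had 1.24, 1.29 and 3.46 CPM in controls, 1.47, 1.93 and 1.03 CPM acute, 19.0, 26.2 and 21.1 CPM subacute and 13.6, 2.66 and 9.97 CPM chronic. It had the lowest acute fold of the 45 in EAE (-0.09) and the largest chronic fold in stroke (1.70). Its highest stage mean was the chronic one in EAE and the subacute one in stroke and epilepsy, while in TBI its log2 folds were 2.54, 2.52 and 0.76 at the acute, subacute and chronic stages. Igfbp4, a related binding protein, was high from the acute stage on in EAE, with log2 folds of 3.40, 3.68 and 3.23 at the acute, subacute and chronic stages. Igf1, the growth factor that both bind, had 30.9, 57.1 and 11.5 CPM in EAE controls, 177, 16.3 and 11.6 CPM acute, 240.1, 26.8 and 240.4 CPM subacute and 63.1, 173 and 245 CPM chronic, again with the second subacute library lowest.

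Kit, the receptor of stem cell factor, had 2.03, 3.17 and 3.14 CPM in stroke controls, 17.0, 19.5 and 28.3 CPM acute, 33.0, 38.2 and 26.7 CPM subacute and 4.54, 2.77 and 3.98 CPM chronic. Acute libraries already lay above all controls and chronic ones. Inhbb, a subunit of activin B, a ligand of the TGF-beta family, was at 0 to 0.218 CPM in epilepsy controls and at 3.69, 3.25 and 4.66 CPM acute, 6.97, 6.15 and 6.61 CPM subacute and 0.658, 0.939 and 0.624 CPM chronic. Myc, a transcription factor that drives cell growth, had EAE log2 folds of 1.32, 2.73 and 2.77 and stroke folds of 0.93, 1.83 and -0.09.

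Cytoskeletal genes, with 6 members, were past 2-fold at the subacute stage for all 6 in EAE and stroke, 5 in TBI and 4 in epilepsy. These counts too come from folds that chose the genes, and nothing is read from them. Pdlim1, an adaptor of actin stress fibres, had 8.53, 7.99 and 8.39 CPM in EAE controls, 36.2, 51.1 and 21.3 CPM acute, 72.7, 85.7 and 65.1 CPM subacute and 100.4, 33.7 and 27.1 CPM chronic. Every injured EAE library was above all controls. Fscn1, fascin, which bundles actin in protrusions, had 9.24, 17.8 and 16.7 CPM in subacute stroke libraries, against 1.41, 1.18 and 1.43 CPM in controls. Dpysl3, a phosphoprotein of growth cones, was the only one of the 45 at a 2-fold lower level in any injured group (2.14% of all expressed genes in subacute epilepsy), with 2.80, 2.24 and 1.02 CPM in subacute epilepsy libraries, against 8.49, 4.72 and 2.83 CPM in controls. In stroke it had 12.9, 19.0 and 36.0 CPM in subacute libraries, against 3.24, 3.02 and 2.83 CPM in controls. Plekho1 and Plekho2, which share a pleckstrin homology domain, and Gas7, had subacute folds between -0.08 (Gas7 in epilepsy) and 2.00 (Plekho2 in EAE).

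Carriers, enzymes and other membrane proteins formed the last group of 8. Aqp1 was at 0.0820, 0.123 and 0.112 CPM in EAE controls, 11.2, 2.31 and 0.673 CPM acute, 22.4, 6.99 and 44.1 CPM subacute and 8.11, 5.88 and 6.83 CPM chronic, and at no stage over 1 CPM in epilepsy. Even its highest EAE library lay far under the lowest organ, heart, at 441 and 512 CPM. Upp1, uridine phosphorylase of pyrimidine salvage, had 1.21, 0.979 and 1.08 CPM in stroke controls, 4.00, 6.24 and 7.25 CPM acute, 11.4, 14.9 and 9.45 CPM subacute and 2.95, 2.52 and 2.10 CPM chronic. All chronic stroke libraries stood above all controls in this gene. Slc43a3, a carrier of purine bases, had subacute log2 folds of 2.34 in epilepsy and 3.13 in EAE and of 0.27 in TBI. Tmem176a, an intracellular membrane protein, had 31.0, 31.6 and 40.3 CPM in acute stroke libraries, against 7.44, 17.2 and 14.6 CPM in controls, and 9.95, 5.78 and 6.93 CPM in acute epilepsy libraries, against 12.3, 10.9 and 9.46 CPM in controls. Bace2, a protease related to the beta-secretase, Trp53i11, Cmtm3 and Neurl3 had subacute folds between 0.49 (Bace2 in TBI) and 3.04 (Neurl3 in EAE).

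**Figure D3:**
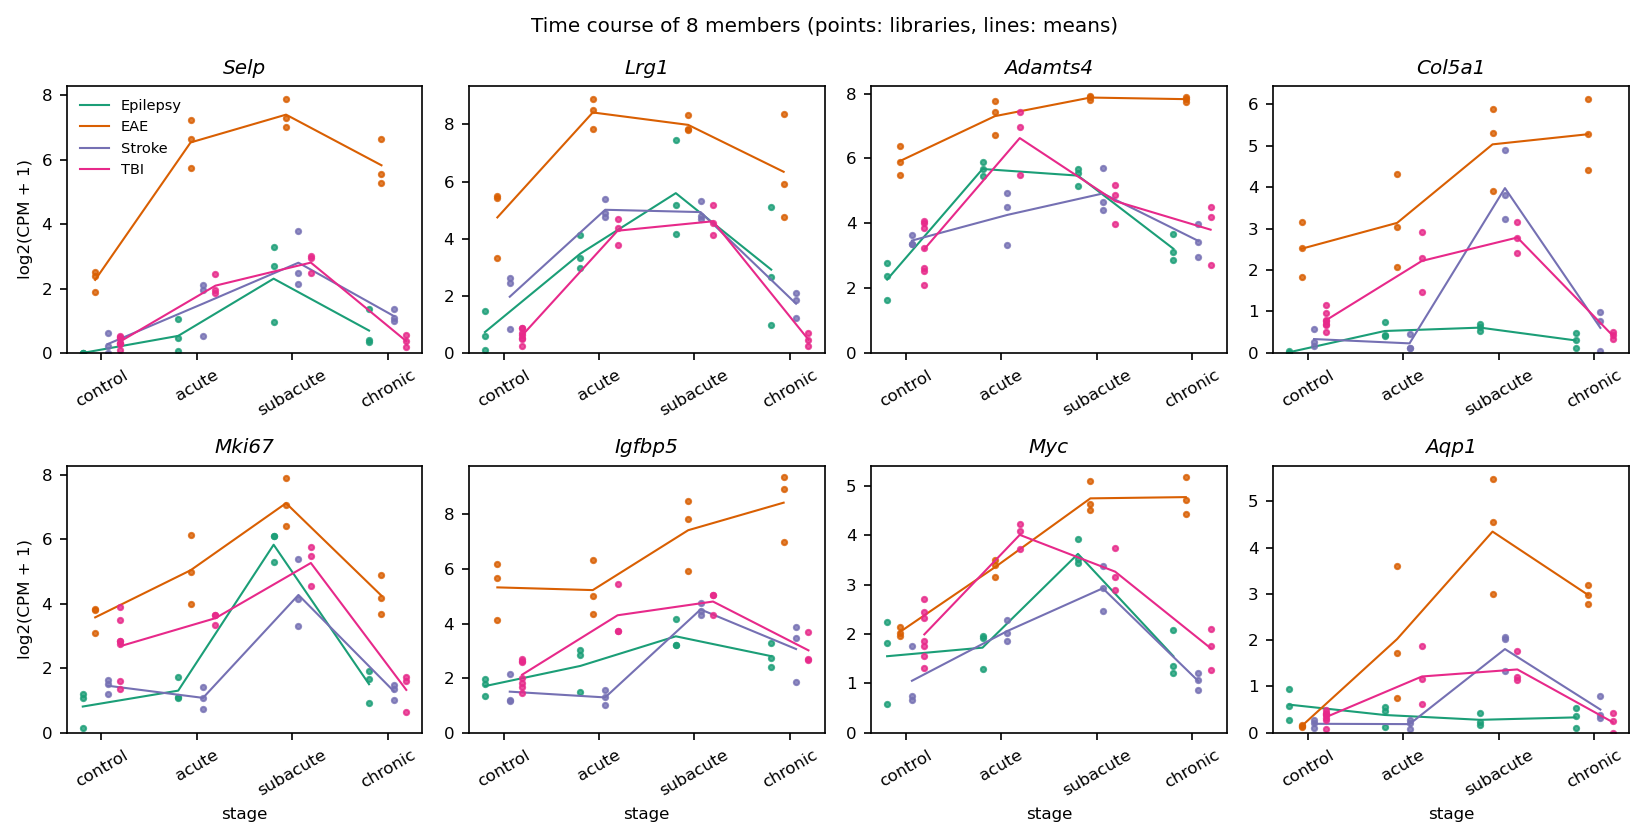
Levels of 8 of the genes as log2(CPM + 1), by stage, with a point for each library and a line through the means; the control point of TBI pools the control libraries of its 3 stages for display. Selp stays above control in all chronic EAE libraries, while 1 chronic EAE library of Lrg1 lies under 2 of the 3 controls; Col5a1 and Mki67 peak at the subacute stage in stroke, and Adamts4 is high at the acute stage in TBI and epilepsy.

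The first test on libraries outside the choice compared acute TBI with its own acute controls. Of the 45 genes, 31 were higher and 0 lower (limma on log2(CPM + 1), adjusted over 14130 genes, called at an adjusted p under 0.05; all 45 passed the filter on low values), against 3.50% higher and 1.95% lower of all genes tested. The filter counted all TBI libraries, and Thy1, which was not called, passed it only with the subacute ones counted. All 45 log2 folds were above 0, as were 45.8% of all genes tested, with a median of 1.39. In 33 genes every acute library was above every control, which was so for 11.2% of all genes. On reads recovered from the CPM values, edgeR called 32 of the 45 and DESeq2 34, all higher.

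Lrg1 had 12.7, 19.8 and 24.8 CPM in acute TBI libraries, against 0.618, 0.833 and 0.831 CPM in controls. The mean was 19.1 ± 6.08 CPM in acute libraries and 0.761 ± 0.124 CPM in controls (SD, n = 3 each), a limma log2 fold of 3.46 ± 0.26 (SE, adjusted p = 2.99e-06). Upp1 had 13.2, 35.4 and 52.8 CPM, against 1.27, 1.06 and 0.631 CPM in controls (limma log2 fold 3.94 ± 0.33, adjusted p = 7.65e-06). The groups were far apart in both genes, with no overlap. Inhbb had 9.28, 74.0 and 65.5 CPM, against 0.412, 1.47 and 1.06 CPM in controls, the largest fold of the 45 (limma 4.27 ± 0.55, adjusted p = 0.000396). Itgb3, which with an alpha chain binds fibronectin and fibrinogen, had 21.1, 58.5 and 69.6 CPM, against 4.98, 2.53 and 4.01 CPM in controls (limma 3.26 ± 0.34, adjusted p = 5.42e-05). Selp had 4.42, 2.65 and 2.89 CPM, against 0.240, 0.449 and 0.373 CPM in controls (limma 1.65 ± 0.19, adjusted p = 0.000163). The first acute library was the lowest of the 3 in Upp1, Inhbb and Itgb3 and the highest in Selp.

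By role, the calls were 6 of 11 genes of adhesion and innate immunity, 9 of 13 of the matrix, 6 of 7 of growth and division, 5 of 6 of the cytoskeleton and 5 of 8 of the carriers and enzymes. Sele (limma 2.28 ± 0.35, adjusted p = 0.00151) and Tmem173 (1.74 ± 0.27, adjusted p = 0.00151) rose, while Ccl2 had a fold of 1.41 ± 0.45 that did not pass (adjusted p = 0.0817) and Cxcl10 one of 0.43 ± 0.30 (adjusted p = 0.477). Among matrix genes Adamts4 had 43.8, 170.0 and 125 CPM in acute libraries, against 3.26, 8.36 and 13.6 CPM in controls (limma 3.57 ± 0.53, adjusted p = 0.00123). Tfpi2 had 4.66, 46.4 and 51.3 CPM, against 2.61, 1.31 and 2.21 CPM in controls (limma 3.01 ± 0.57, adjusted p = 0.00587). Its first acute library stood far below the other two. At the subacute stage Tfpi2 had 2.46, 2.22 and 1.37 CPM, against 2.11 and 1.51 CPM in controls, which overlapped. Growth genes that rose were Inhbb, Igfbp4, Myc, Igfbp5, Kit and Igf1, and Mki67 did not pass (0.15 ± 0.32, adjusted p = 0.856). Among the smallest acute TBI folds of the 45 were those of Mki67, Tlr2 and Ctss, at 0.09, 0.13 and 0.15.

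**Figure D4:**
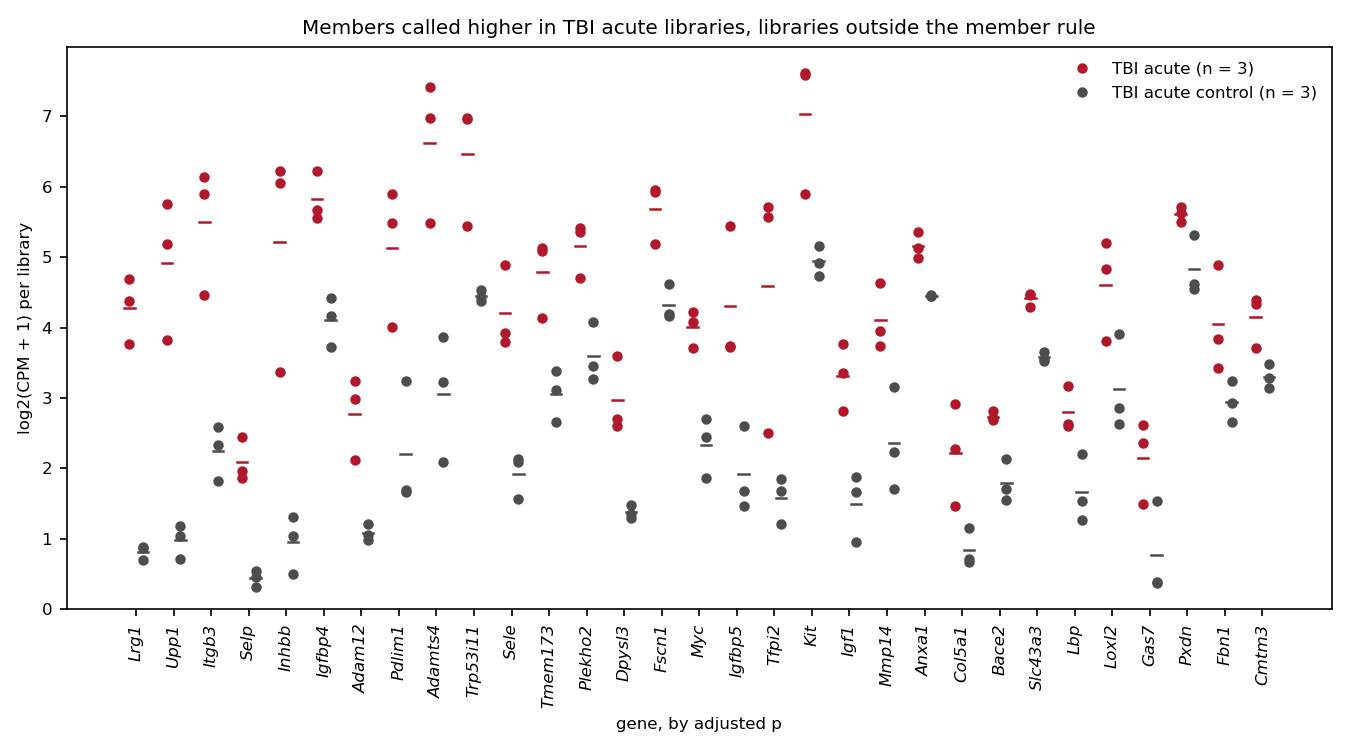
The 31 genes that limma called higher in acute TBI, as log2(CPM + 1) per library, with acute libraries at left in red, their own controls at right in grey, and a bar at each mean (n = 3 each), ordered by adjusted p. The 3 acute points lie above the 3 control points in nearly every gene; in Loxl2 and Gas7 the lowest acute library is under the highest control.

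In the fit of the acute TBI and control groups alone, 17 of the 31 calls remained; Pdlim1, Igfbp5, Tfpi2, Kit, Mmp14, Anxa1 and Col5a1 were among those lost. Of the 31, 23 remained called whichever of the 6 libraries was left out. The others were Bace2 and Slc43a3, lost without acute library 2 (log2 folds 0.90 and 0.81) or control library 2 (0.82 and 0.83), Lbp, lost without acute library 2 (0.94) or control library 1 (1.06), and Loxl2, lost without acute library 2 (1.18), control library 1 (1.23) or control library 2 (1.34). Gas7 (1.16 to 1.78), Cmtm3 (0.72 to 1.06), Fbn1 (0.69 to 1.42) and Pxdn (0.65 to 1.03) were lost without any of 4 or 5 of the libraries.

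Genes of the same pathways outside the 45 were counted from lists drawn up with earlier results of these data known. In acute TBI, limma called 21 higher and 1 lower of 76 further extracellular matrix genes (median log2 fold 0.59), 13 higher and 0 lower of 35 of the NF-kB and cytokine response (0.43), 14 and 0 of 51 of cytoskeleton, annexins and S100 proteins (0.21), 9 and 1 of 36 of angiogenesis (0.19) and 7 and 1 of 32 of complement and coagulation (0.38). Leukocyte adhesion genes other than Selp, Sele and Ccl2 were higher in 4 and lower in 1 of 27 (median -0.06). Cell cycle genes other than Mki67 were higher in 3 and lower in 2 of 107 (0.14), and interferon response genes other than Cxcl10 in 3 and 2 of 57 (-0.32). Caveolae and vesicle genes gave 2 and 2 of 13 (0.15), lysosome genes 1 and 0 of 30 (-0.06), lipid handling genes 0 and 1 of 13 (0.20) and antigen presentation genes 0 and 1 of 25 (-0.18). The median of all genes tested was -0.03, and 3.50% of them were called higher and 1.95% lower.

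Fibroblast markers moved with the acute TBI groups too. They summed to 422, 265 and 153 CPM in acute libraries, against 80.1, 97.8 and 124 CPM in controls, and limma called 4 of 13 higher. These 4, Dcn, Col1a1, Lum and Col3a1, are also among the 21 further matrix genes called higher. Col5a1, at 6.51, 3.86 and 1.77 CPM in acute libraries, against 0.584, 1.22 and 0.631 CPM in controls, and Fbn1, at 28.7, 13.3 and 9.76 CPM, against 5.32, 8.43 and 6.62 CPM, ran in the same order over the acute libraries. Inhbb, Itgb3, Upp1 and Tfpi2 did not, having their lowest value in the first, where the fibroblast sum was highest. Among other called matrix genes, Adam12 ran in the order of the fibroblast sum. Adamts4, Loxl2 and Mmp14 did not, having their highest value in the second acute library. Microglia and macrophage markers summed to 84.0, 178 and 49.9 CPM in acute libraries, against 103, 34.9 and 208 CPM in controls, and mural markers to 5851, 9594 and 1499 CPM, against 1090, 1475 and 8371 CPM. None of the 19 microglia and macrophage and none of the 16 mural markers tested was called in either direction. The part of fibroblasts in the acute TBI calls was not tested.

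In chronic TBI, limma called 0 of the 45 genes in either direction, as it did of all 14130 tested (0%). At an unadjusted limma p under 0.05 there were 3 genes. Neurl3 had 3.98, 5.12 and 4.79 CPM in chronic libraries, against 1.496 and 2.74 CPM in controls. Tlr2 had 4.01, 7.01 and 11.3 CPM, against 2.27 and 3.27 CPM, and Anxa1 29.3, 22.04 and 24.0 CPM, against 18.3 and 19.8 CPM. Without chronic control library 1, 0 of the 45 had such a p. The share of all genes at that p was not counted, so nothing is read from the 3. The edgeR and DESeq2 tests on recovered reads called 0 as well. The median log2 fold was 0.10, and the groups had 3 and 2 libraries.

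In stroke, where control libraries had served the choice, acute libraries were set against chronic ones. Limma called 6 of the 45 genes higher in acute than in chronic stroke and 0 lower, against 0.416% higher and 0.334% lower of all 13474 genes tested. The filter on low values, which all 45 passed, also counted the subacute libraries that had chosen the genes. Col5a1, Thy1 and Aqp1 were over 1 CPM in subacute stroke libraries alone and entered the test only through them. None of them was called. These were Kit (21.6 ± 5.92 CPM acute and 3.77 ± 0.908 CPM chronic, SD, n = 3 each, log2 fold 2.23 ± 0.21, limma adjusted p = 0.000188), Lrg1 (3.29 ± 0.38, adjusted p = 0.00108), Tmem173 (1.28 ± 0.18), Tmem176a (1.66 ± 0.26), Igfbp4 (1.72 ± 0.29) and Trp53i11 (1.40 ± 0.29, adjusted p = 0.0415). In all 6 the acute libraries lay above the chronic ones without overlap. Igfbp5 and Igf1 had the opposite sign, with folds of -1.77 ± 0.40 and -1.13 ± 0.39, and did not pass (adjusted p = 0.0602 and 0.209). The call of Trp53i11 was lost without acute library 2 (1.49) or 3 (1.03) or chronic library 2 (1.28) or 3 (1.38), and the other 5 held whichever library was left out.

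In EAE the same contrast gave 0 genes higher in acute than in chronic libraries and 2 lower, against 0.0482% and 0.703% of 14508 genes tested. Myc had 10.2, 9.57 and 7.95 CPM in acute libraries and 20.4, 25.2 and 35.1 CPM in chronic ones (limma log2 fold -1.42 ± 0.23, adjusted p = 0.0181). Mmp14 had 18.04, 11.7 and 6.98 CPM in acute and 29.8, 33.9 and 70.8 CPM in chronic libraries (-1.77 ± 0.36, adjusted p = 0.0442). The libraries did not overlap in either gene. Matrix genes had a median log2 fold of -1.35, and fibroblast markers one of -2.76 with 1 of 13 called lower. Their part in the matrix genes was not tested. The count depended on single libraries: it was 8 without acute library 1, whose fibroblast sum was 2459 CPM against 372 and 397 CPM in the other two acute libraries, 11 without chronic library 1, and 0 without any one of the other 4. Over the 6 fits with a library left out, the folds of Myc lay between -1.59 and -1.22 and those of Mmp14 between -2.08 and -1.40.

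In epilepsy, limma called 12 genes higher and 4 lower in acute than in chronic libraries of the 41 that passed the filter, against 10.7% higher and 35.7% lower of all 13740 genes tested. Col5a1, Thy1, Adam12 and Aqp1 were under the filter. Selp, which was not called, passed it only with the subacute libraries counted, and these had chosen the genes. Thbs1 had 58.8, 57.4 and 41.5 CPM in acute libraries and 2.37, 14.3 and 4.06 CPM in chronic ones (limma log2 fold 3.05 ± 0.40, adjusted p = 1.82e-05). Adamts4 (2.46 ± 0.27), Ccl2 (2.36 ± 0.32), Cd14 (2.16 ± 0.35), Inhbb (1.48 ± 0.22), Tfpi2 (1.54 ± 0.36), Plekho2 (1.17 ± 0.22) and Pdlim1 (1.16 ± 0.34) were higher too and held whichever library was left out. Higher calls of Igfbp4, Cxcl10, Loxl2 and Upp1 were lost without 2, 2, 4 and 5 of the 6 libraries, with folds down to 0.70, 0.85, 0.67 and 0.84. Lower in acute libraries were Igf1, at 0.161, 0.128 and 0.289 CPM in acute and 2.19, 1.76 and 2.42 CPM in chronic libraries (limma -1.39 ± 0.33, adjusted p = 0.0031), Tmem176a (-1.59 ± 0.43), Trp53i11 (-0.95 ± 0.32) and Emilin1 (-0.83 ± 0.31). The median of all genes in this contrast was -0.30. With quantile normalization, which brought it near 0, 15 of the genes were higher and 1 lower, and the lower calls of Tmem176a, Trp53i11 and Emilin1 were lost. Trp53i11 (-0.80 to -1.09) and Emilin1 (-0.78 to -0.93) also lost their calls without 3 and 6 of the libraries. Of the pathway genes outside the 45, limma called 17 higher and 1 lower of 36 of the NF-kB and cytokine response, 26 and 2 of 51 of cytoskeleton, annexins and S100 proteins, 15 and 13 of 67 of the matrix, 3 and 21 of 109 of the cell cycle and 1 and 38 of 59 of the interferon response in this contrast. The remaining lists gave 6 and 2 of 24 for leukocyte adhesion, 11 and 4 of 31 for complement and coagulation and 12 and 10 of 36 for angiogenesis. Caveolae and vesicle genes gave 3 and 3 of 14, lipid handling genes 5 and 4 of 12, antigen presentation genes 2 and 11 of 25 and lysosome genes 1 and 12 of 29.

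The last comparison asked whether the genes belonged to sorted brain vessels or to whole brain in the healthy state. Limma called 7 of the 45 higher and 14 lower in brain vascular cells than in whole brain, against 25.3% higher and 31.9% lower of 18141 genes tested. The filter also counted the organ libraries, in which the genes were chosen as high, so all 45 passed it by the choice. Genes near 0 in both compared groups are thus among the 45, such as Selp (means of 0.204 and 0.116 CPM) and Lrg1 (0.583 and 0.379 CPM). Nothing is read from the 2 counts against the shares of all genes. Anxa1 had 26.8 and 26.6 CPM in brain vascular cells, against 3.42, 2.49, 1.89 and 2.66 CPM in whole brain (limma log2 fold 2.95 ± 0.29, adjusted p = 7.06e-07). Tlr2 (2.09 ± 0.30), Slc43a3 (1.36 ± 0.24), Cmtm3 (1.34 ± 0.32), Emilin1 (1.71 ± 0.48), Tmem176a (1.09 ± 0.33) and Cd14 (1.45 ± 0.53) were higher too. Thy1 had 0.411 and 0.0399 CPM in brain vascular cells, against 238, 160.2, 188 and 93.3 CPM in whole brain (limma -7.06 ± 0.40, adjusted p = 1.77e-09). Gas7, a growth arrest gene that neurons express, had 1.77 and 1.12 CPM, against 287, 310.1, 304 and 245 CPM in whole brain (limma -6.89 ± 0.27, adjusted p = 4.32e-11). Also lower were Kit, Fscn1, Igfbp5, Ctss, Col5a1, Dpysl3, Igf1, Trp53i11, Mki67, Plekho1, Pxdn and Adam12. Neuron markers summed to 49.5 to 69.7 CPM in brain vascular cells, against 4759 to 5876 CPM in whole brain. With quantile normalization, which moved the median of all genes from -0.07 to 0.17, 14 were higher and 14 lower. Calls of Cmtm3 (0.92), Adam12 (-1.23), Tmem176a (0.41) and Cd14 (0.84) were lost without brain vascular library 2 and that of Emilin1 (1.61) without library 1, and that of Cd14 also without whole brain library 2 or 4 (1.33 and 1.34).

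**Figure D5:**
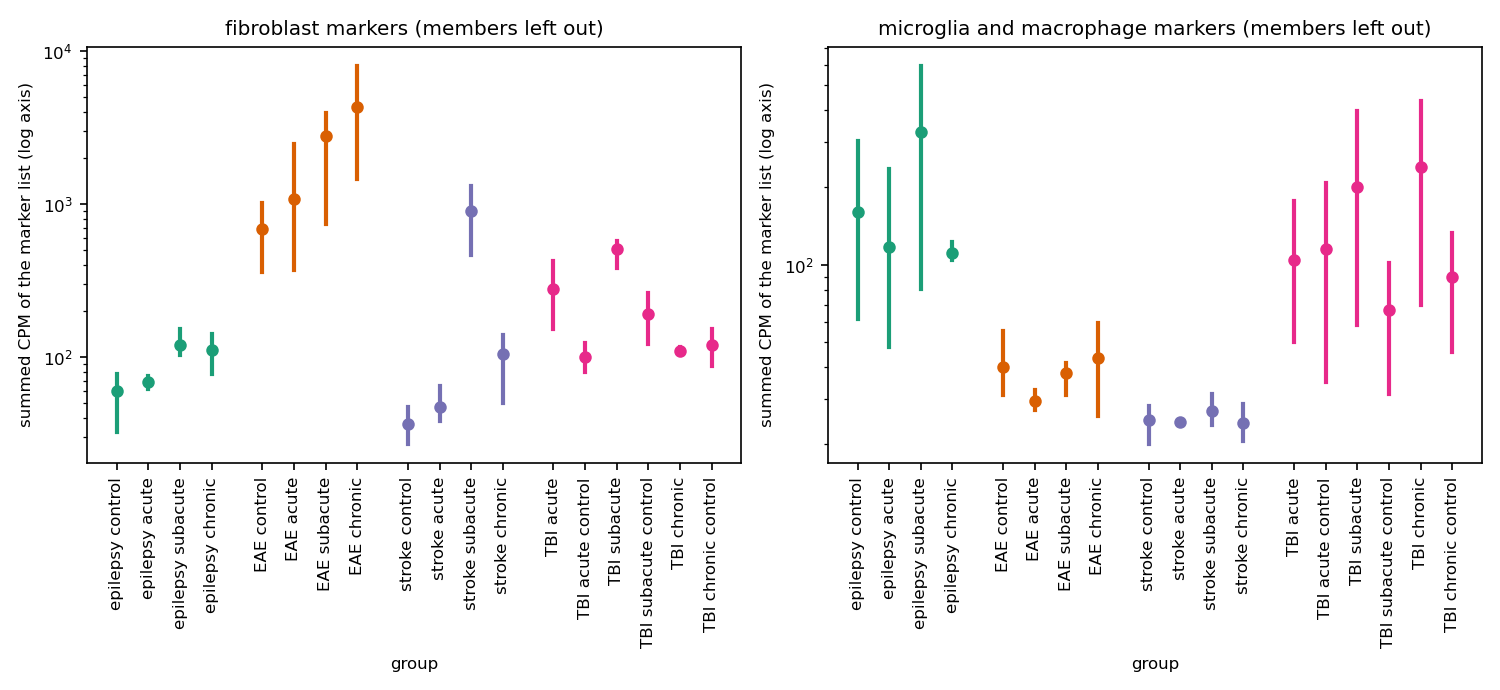
Summed CPM of fibroblast markers (left, 13 genes) and of microglia and macrophage markers (right, 19 genes) in the injury groups, on log axes, with the mean as a point and the lowest and highest library as a bar. Fibroblast sums are highest in EAE at the chronic stage and step up in subacute stroke, while microglia and macrophage sums are low in EAE and stroke and higher in epilepsy and TBI.

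Fibroblast markers past 2-fold at the acute, subacute and chronic stages numbered 1, 10 and 13 of 13 in EAE, 1, 12 and 4 in stroke, 8, 8 and 0 in TBI and 0, 4 and 2 in epilepsy. Microglia and macrophage markers past 2-fold numbered 0, 14 and 13 of 19 in TBI and 0, 11 and 1 in epilepsy, and at most 1 at any stage of EAE or stroke. In stroke their sums were 20.1 to 31.4 CPM in all 12 libraries. Mural markers past 2-fold on the lower side numbered 7 of 17 in chronic EAE, with sums of 2085 to 2268 CPM in chronic libraries, against 4809 to 5518 CPM in controls, and at most 1 elsewhere. Red blood cell markers summed to 2945 to 3984 CPM in acute TBI libraries, against 4689 to 4830 CPM in their controls, and to 1461 to 1592 CPM in subacute TBI libraries, against 3133 to 3706 CPM in theirs, where 4 of 7 were past 2-fold on the lower side. Of these 7 markers, 3 were past 2-fold on the lower side in subacute EAE and 5 on the higher side in chronic epilepsy. The part of fibroblasts, microglia and macrophages, mural cells and red blood cells in the levels of the 45 genes was not tested.

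The limits of the choice had near neighbours on both sides. By the third largest subacute log2 fold, Ctss (1.02), Igf1 (1.06), Col5a2 (1.06) and Gas7 (1.09) were just inside, and Adam19 (0.98), Pvrl2 (0.98), Slc15a3 (0.95) and Casp4 (0.94) just outside. By the ratio of the lowest organ to brain endothelial + 1, Col5a2 (2.48), Thbs1 (2.72), Trp53i11 (2.83) and Pdlim1 (3.00) were the lowest inside, and S100a6 (1.82), Cxcl2 (1.79), Cyp1b1 (1.58) and Synpo (1.52) the highest outside. By the lowest organ level, Ccl2 (5.001 CPM), Ctss (5.29 CPM), Tfpi2 (5.69 CPM) and Lrg1 (6.02 CPM) were just inside, and Fam38b (4.75 CPM), Dbn1 (4.74 CPM), Atp8b1 (4.10 CPM) and Mmp2 (4.07 CPM) just outside.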

How the data were processed

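RNA-seq of 68 libraries in 25 groups was used as the authors deposited it, in CPM per gene and library (per the file headers). Tools listed, per the submitters' processing notes, were Subread, featureCounts and TopHat2 2.0.13, and the build was mm9; roles and settings are not given in the sources used here. The tables held 37991 lines, among them 3401 repeated symbols, of which the line of highest mean was kept; 25 symbols had been turned into dates. The authors deposited other columns as well, with gene classes and modules, of which class marks were used only as marks. Mitochondrial rRNA took 12.2% to 51.8% of reads and lies inside the CPM total, so it lowers all other values of a library.

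CPM were whole multiples of 1 read in 100% of 1374704 nonzero values (within 0.001), so that 1 CPM was worth 18.8 to 38.8 reads, with a median of 27.3. A count of 3 reads corresponded to 0.0774 to 0.160 CPM. Reads from a polymerase-amplified library without molecular identifiers are not independent molecules, so this covers counting error only.

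Group means gave the choice of genes and log2 folds with a pseudocount of 1 CPM. Tests used limma 3.58.1 (R 4.3.3, with a trend) on log2(CPM + 1), which understates the change of low genes, over all genes above 1 CPM in at least 3 libraries of the model (2 for TBI and the healthy groups), fitted over all groups of the model or all healthy groups and adjusted by Benjamini-Hochberg over all genes tested. Steps were tested on simulated data. Alternatives were edgeR 4.0.16 and DESeq2 1.42.0 on the recovered reads, other filters, scalings and pseudocounts, the replicate number as a block, and each library left out.

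The genes, the lists and the roles were chosen with earlier results of these data known. Named were up to 5 members of each list by subacute level, the 12 with the largest mean subacute fold, up to 5 per direction of each test, 4 on either side of each limit and 3 with the largest and smallest acute fold per model; the others were named by role after their values were seen. Promoters came from RefSeq on GRCm38.p6, matched by symbol. Adamts4, Thy1, Loxl2, Adam12, Cd14, Myc, Lbp, Ccl2, Slc43a3, Tmem173, Thbs1, Itgb3, Col5a2, Dpysl3, Bace2 and Gas7 had no entry there.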

Additional observations from a re-analysis of the deposited data

Results flagged for a closer look

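Among the 4 whole brain libraries, 6 of the genes had a value far from the other 3; chance flags about 1 in 20 groups of this size. Trp53i11 was lowest at 19.4 CPM, with the others from 30.1 CPM. Slc43a3 was highest at 1.34 CPM, against at most 0.508 CPM in the others, and Col5a2 at 4.35 CPM, against at most 2.49 CPM. Selp reached 0.415 CPM and Sele 0.645 CPM in the same library, the third, against at most 0.0493 CPM in the others for both genes. These 2 flags are thus not independent. Tfpi2 had 0.0922 CPM in 1 library, a level of fewer than 3 reads, and was listed at 0 in the others, so nothing is read from its flag.

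The difference between acute and chronic libraries itself differed between models for some genes, by a limma interaction term across all 15252 genes tested, chosen after seeing the data. Between EAE and epilepsy it differed for 17 of the 45 genes, 2 higher and 15 lower in EAE, against 30.2% higher and 8.36% lower of all genes. Of the 15, Col5a1 and Thy1 were under the filter on low values in epilepsy and entered this test through the libraries of the other models, so these 2 calls support nothing. With the smallest p on either side, Thbs1 (-4.87 ± 0.61, SE, limma adjusted p = 3.62e-07), Ccl2 (-3.47 ± 0.70), Adamts4 (-2.98 ± 0.49), Plekho2 (-2.23 ± 0.37) and Mmp14 (-1.88 ± 0.43) were lower, and Tmem176a (2.44 ± 0.62) and Plekho1 (1.40 ± 0.51) were higher. Between stroke and epilepsy it differed for 9 genes, 3 higher and 6 lower in stroke, against 26.2% and 6.13% of all genes. Tmem176a (3.26 ± 0.62), Sele (2.38 ± 0.92) and Trp53i11 (2.35 ± 0.53) were higher, and Thbs1 (-3.34 ± 0.61), Ccl2 (-2.64 ± 0.70), Cd14 (-1.999 ± 0.56), Cxcl10 (-1.74 ± 0.65) and Adamts4 (-1.66 ± 0.49) were lower. Between stroke and EAE it differed for 2 genes, both higher in stroke, against 0.492% higher and 0.157% lower of all genes: Kit (3.17 ± 0.65, limma adjusted p = 0.0138) and Myc (2.43 ± 0.46, limma adjusted p = 0.00652). The interaction term was fitted without quantile normalization only, and the epilepsy contrast inside it had a median of -0.30 over all genes. With quantile normalization, the lower calls of Tmem176a and Trp53i11 in the epilepsy contrast were lost.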

How the results depend on the processing

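The choice of 45 genes moved with its limits: 23 met it in all 4 models, 141 at folds of 1.5 and 17 at folds of 3, and 69 when mitochondrial rRNA was left out of the CPM total; with quantile normalization 36 met it, of which 32 were among the 45. It ranged from 40 to 52 genes with single libraries left out. Genes past 2-fold depended on the pseudocount at the chronic stage, where 0.1 CPM gave 10 in epilepsy, 10 in stroke and 5 in TBI; in stroke quantile normalization gave 5 and leaving out mitochondrial rRNA 6. With single libraries left out, these counts ranged from 2 to 6 in chronic epilepsy, 2 to 4 in chronic stroke, 2 to 4 in chronic TBI, 37 to 42 in chronic EAE, 13 to 15 in acute epilepsy, 26 to 36 in acute EAE, 11 to 15 in acute stroke and 27 to 33 in acute TBI.

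Without the filter on low values, limma called 10 genes in epilepsy (acute against chronic), 0 in EAE and 3 in stroke. In EAE, 1 was called by limma without a trend, 1 with mitochondrial rRNA left out and 1 by edgeR; DESeq2 called 6 in EAE and 11 in stroke. In fits of only the 2 compared groups, 0 were called in EAE and 17 in acute TBI. With single libraries left out the calls ranged from 11 to 14 in epilepsy, 0 to 11 in EAE, 5 to 8 in stroke, 23 to 33 in acute TBI, 0 to 0 in chronic TBI and 19 to 22 between brain vascular cells and whole brain. Of 1140 values of single genes under the alternatives, 986 kept their direction and call, 154 kept their direction and lost the call, and 0 turned their direction; the cause of the losses was not tested.

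Replicate numbers were shared between groups but did not pair the libraries: same-numbered libraries deviated from their group means with correlations of -0.69 to -0.09 in acute TBI, -0.26 to 0.13 in EAE, -0.17 to 0.26 in stroke, -0.06 to 0.00 in epilepsy and 0.15 to 0.25 in chronic TBI. With the number as a block, limma called 0 genes in acute TBI (37 at an unadjusted p under 0.05), 4 in chronic TBI, 0 in EAE, 5 in stroke, 18 in epilepsy and 28 between brain vascular cells and whole brain.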
